A study of Homo sapiens with 30 samples.

Results

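The Hedgehog pathway genes described here are PTCH1, GLI1, GLI2, GLI3, HHIP, SMO, SUFU, GAS1 and BOC. They were taken by gene symbol from a table of RNA-seq read counts, where the 9 symbols matched 9 of 57373 genes, and all 9 were among the 18485 genes with enough counts to test. The cells were U2OS, a human osteosarcoma line. Each of 6 groups held 5 libraries that the labels call biological replicates. One group received a plasmid for FOXP2 without residues 264 to 272 (dhelix FOXP2) plus CHIR99021 (dhelix + CHIR cells). The next received a plasmid for wild-type FOXP2 plus CHIR99021 (WT + CHIR cells). Another group was treated with CHIR99021 and its label names no plasmid (CHIR cells). The remaining groups received the dhelix FOXP2 plasmid (dhelix cells), the wild-type FOXP2 plasmid (WT cells) or were mock-transfected (mock cells). FOXP2 is a forkhead transcription factor, and CHIR99021 is an inhibitor of glycogen synthase kinase 3 (GSK3) that is used to stabilise β-catenin and activate Wnt signalling. The inhibitor (5 µM) was added 72 hours ahead of transfection, and cells were exposed to 500 ng of plasmid for 48 hours.

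Hedgehog ligands bind the membrane protein PTCH1 with the help of the coreceptors BOC, CDON and GAS1. Bound PTCH1 no longer holds back SMO, which then acts at the primary cilium to free the GLI transcription factors from SUFU. GLI1, PTCH1 and HHIP are themselves transcribed in response to GLI factors and are widely read as markers of pathway output. GSK3 is one of the kinases that mark GLI2 and GLI3 for proteolytic processing, and the pathway acts in skeletal development, where Indian hedgehog coordinates cartilage and bone formation.

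All 9 genes fell with CHIR, with WT FOXP2 and with dhelix FOXP2, each against mock cells, and in none of these comparisons did the libraries of the groups overlap for any of the 9. Against mock cells, 74.1% of all tested genes passed with CHIR, 81.6% with WT FOXP2 and 80.5% with dhelix FOXP2. Of all tested genes, 38.8% were higher and 35.3% lower with CHIR, 39.9% higher and 41.6% lower with WT FOXP2, and 39.6% higher and 40.9% lower with dhelix FOXP2. Genes whose libraries lay wholly below those of mock cells made up 27.8% of all tested genes with CHIR, 36.8% with WT FOXP2 and 36.8% with dhelix FOXP2. The median log2 fold change of the 9 genes was -1.23 with CHIR, -1.58 with WT FOXP2 and -1.54 with dhelix FOXP2, beside medians over all tested genes of 0.02, -0.02 and -0.02. All 3 comparisons share the mock libraries, which also enter the interactions given next. Where CHIR and a FOXP2 plasmid were combined, all 9 genes stood by the test of interaction higher than the product of the separate effects, for WT FOXP2, where 30.7% of all tested genes did, and for dhelix FOXP2, where 31.2% did.

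Levels are CPM, that is, counts relative to the size of their library, on library sizes scaled by trimmed means of M values, and a value after ± is the SD over 5 libraries for a level and the standard error for a log2 fold change. Adjusted p-values are from edgeR's quasi-likelihood test with Benjamini-Hochberg adjustment over all tested genes, with a threshold of 0.05. CPM are not corrected for gene length, so levels are compared between groups and not between genes. In RNA from whole cultures, fewer cells that express a gene and less RNA per cell cannot be told apart. No label states that an empty plasmid was used in mock or CHIR cells, so an effect of plasmid DNA and one of FOXP2 cannot be told apart. Whether CHIR cells were also mock-transfected is not described here, so a part of transfection in CHIR against mock cells was not tested.

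**Figure D1:**
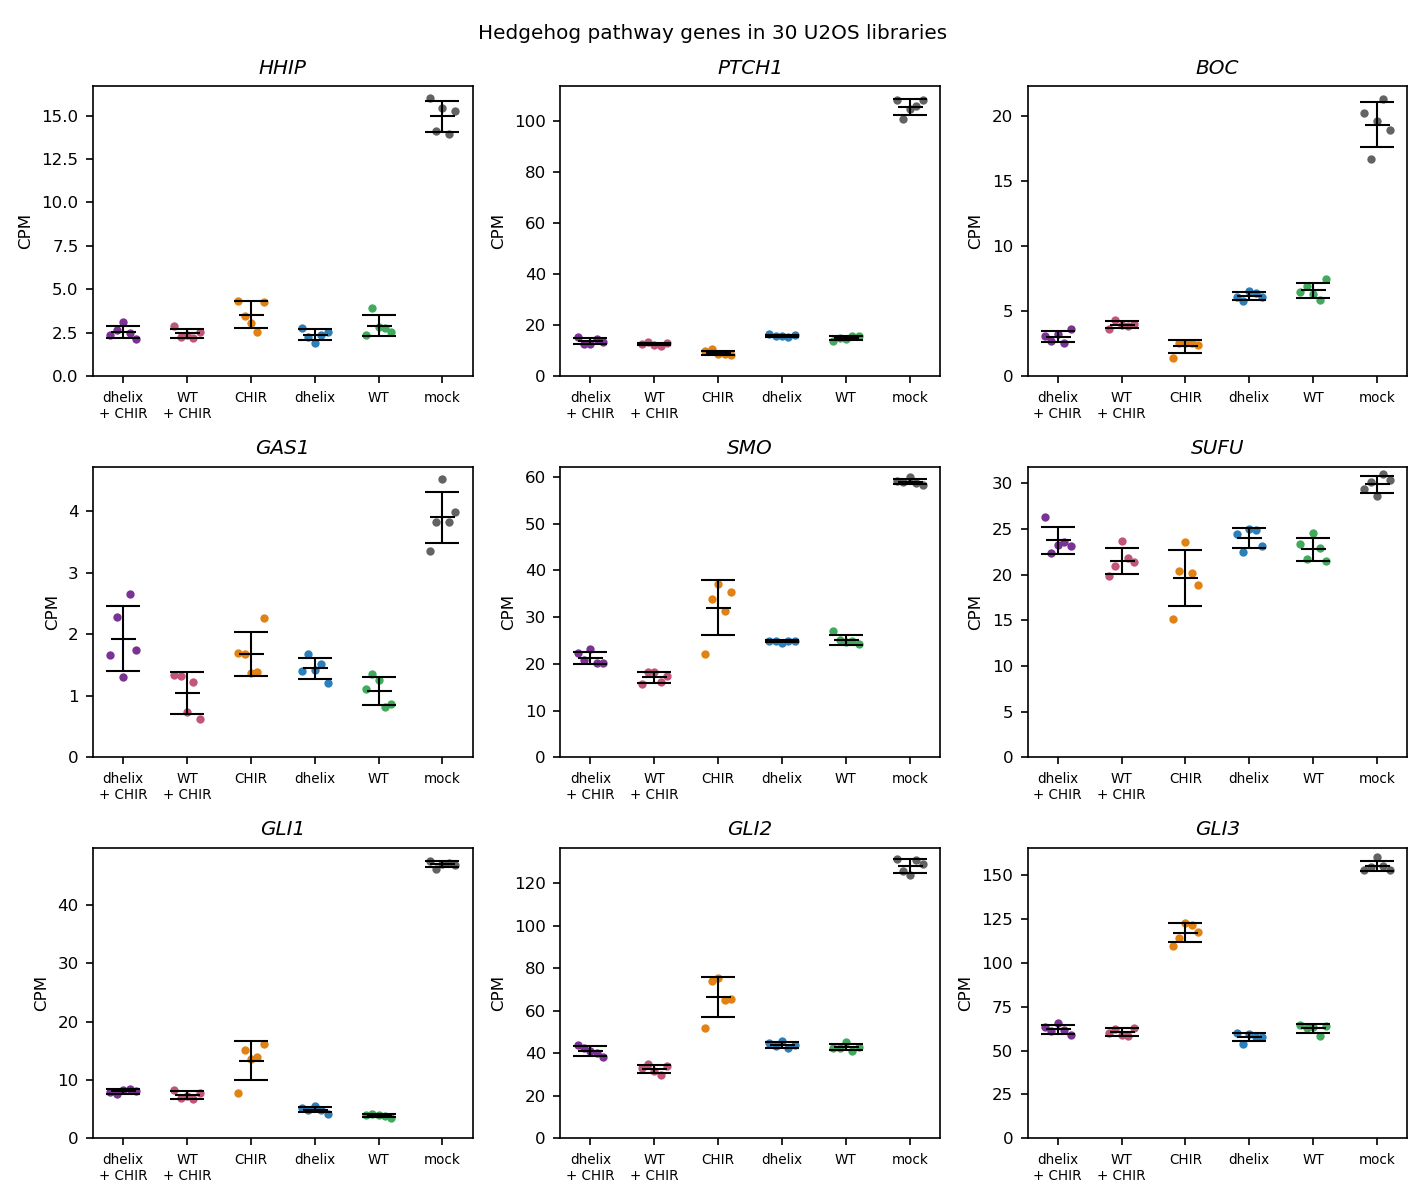
Level of each Hedgehog pathway gene in CPM (vertical axes, each from 0) in the 6 groups. Points are the 5 libraries, and bars are the mean and SD. Mock cells stand above every other group for all 9 genes, and CHIR replicate 1 is the lowest CHIR library for GLI1, GLI2, GLI3, SMO, SUFU and BOC.

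The libraries held 15755842 to 29466652 counts, with a biological coefficient of variation of 5.62%. FOXP2 averaged 13481 CPM in dhelix + CHIR cells, 15299 CPM in WT + CHIR cells, 5319 CPM in dhelix cells and 7076 CPM in WT cells, and it was at most 1.33 CPM in any CHIR or mock library. The Wnt targets AXIN2 and LEF1 were higher in CHIR cells than in mock cells, with log2 fold changes of 2.79 ± 0.09 (adjusted p = 5.13e-24) and 1.65 ± 0.06 (adjusted p = 4.04e-25). The labelled cell type was checked against marker lists: VIM, SPARC, FN1 and COL1A1 were abundant in mock cells, while SP7 reached at most 3 counts, BGLAP at most 7 and COL1A2 at most 7 in any library. Of 9 mesenchymal and osteoblast markers, 6 were tested, and the summed level of the 9 was 3268 to 3791 CPM in dhelix + CHIR cells, 2897 to 3045 CPM in WT + CHIR cells, 7421 to 8385 CPM in CHIR cells, 4456 to 4632 CPM in dhelix cells, 4830 to 4998 CPM in WT cells and 7585 to 7796 CPM in mock cells. Of the 5 epithelial markers, KRT19 reached at most 5 counts, and their summed level was 331 to 410.2 CPM in CHIR cells, 641 to 689 CPM in dhelix cells, 637 to 672 CPM in WT cells and 360.0 to 400.4 CPM in mock cells. The corresponding sum was 572 to 620.2 CPM in dhelix + CHIR cells and 543 to 609 CPM in WT + CHIR cells. KRT8 averaged 199 CPM in mock cells and 170 CPM in WT cells, and KRT18 averaged 170 CPM and 481 CPM. Of the 4 tested epithelial markers, 2 were higher and 2 lower with WT FOXP2 against mock cells. Of the 5 blood markers, HBB was at 0 in all 30 libraries, and their summed level was at most 19.9 CPM in WT + CHIR cells and 0.715 CPM in mock cells. ITGAM averaged 0.123 CPM in mock, 10.9 CPM in WT and 16.5 CPM in WT + CHIR cells. CD3D averaged 0.0688 CPM in mock and 5.49 CPM in dhelix cells. Among the 3 tested blood markers, 3 were higher with CHIR, and 2 were higher and 1 lower with each plasmid, against mock cells. For 2 endothelial markers the highest sum was 47.6 CPM in dhelix + CHIR cells and 5.25 CPM in mock cells, and for 3 neural markers it was 230.3 CPM and 304 CPM in these groups. VWF averaged 41.2 CPM and CDH5 0.511 CPM in dhelix + CHIR cells. NES averaged 203 CPM in dhelix + CHIR cells and 301 CPM in mock cells. SOX10 reached at most 1 count and GFAP at most 14 in any library. PECAM1 and TUBB3 were not matched by symbol. The part of these markers in the results below was not tested.

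PTCH1 (ENSG00000185920), the receptor that restrains SMO and is itself induced by GLI factors, had the largest fall of the 9 genes with CHIR. CHIR cells had 9.76, 10.5, 8.63, 8.78 and 8.51 CPM, and mock cells had 108, 101, 105, 106 and 108 CPM. The groups did not overlap, and the mean in CHIR cells was 8.74% of that in mock cells, a log2 fold change of -3.52 ± 0.05 (adjusted p = 1.43e-35). Dhelix cells had 16.4, 15.7, 15.9, 15.3 and 16.1 CPM and WT cells 13.8, 15.2, 14.6, 15.6 and 15.8 CPM, so that both plasmid groups lay wholly below mock cells. The log2 fold changes against mock cells were -2.73 ± 0.05 (adjusted p = 5.84e-34) with dhelix FOXP2 and -2.81 ± 0.05 (adjusted p = 5.08e-34) with WT FOXP2. Dhelix + CHIR cells had 15.3, 12.8, 12.7, 14.6 and 13.6 CPM and WT + CHIR cells 12.6, 13.3, 12.2, 12.04 and 13.1 CPM. Every library with a plasmid and CHIR was thus above every library with CHIR alone. The order of the means ran from mock cells through dhelix, WT, dhelix + CHIR and WT + CHIR cells to CHIR cells, and only mock cells at the top and CHIR cells at the bottom did not overlap their neighbour in that order. A gene that overlaps PTCH1 exons on the opposite strand, RP11-435O5.5, averaged at most 0.558 CPM in any treated group and 1.77 CPM in mock cells.

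Promoter windows for PTCH1 are shown because PTCH1 had the largest interaction of the 9 genes and because they hold short letter matches to the binding cores of GLI and forkhead factors. RefSeq promoter sequences (build GRCh38.p14, from 250 bases before to 50 bases after a gene's start) were found for 7 of the 9 genes, in 13 windows, 5 of them of PTCH1; GLI1 and GLI3 had no entry. The GLI core CCACCCA, read on both strands, was present in 2 of the 13 windows and in 9.19% of all 35116 windows in the table. The forkhead core TGTTTAC was present in 3 of the 13 windows, 2 of them of PTCH1, and in 3.42% of all windows. The TCF/LEF core CTTTGAT was in 0 of the 13 windows and in 2.62% of all windows. Such a match is a run of letters and was not tested as a binding site. The first PTCH1 sequence holds a forkhead core on each strand and the second a GLI core; only the 250 bases before the start are printed, and capitals mark the cores (TGTTTAC or its reverse complement GTAAACA, and TGGGTGG, the reverse complement of CCACCCA).
PTCH1 upstream, chr9:95507428-95507677, minus strand: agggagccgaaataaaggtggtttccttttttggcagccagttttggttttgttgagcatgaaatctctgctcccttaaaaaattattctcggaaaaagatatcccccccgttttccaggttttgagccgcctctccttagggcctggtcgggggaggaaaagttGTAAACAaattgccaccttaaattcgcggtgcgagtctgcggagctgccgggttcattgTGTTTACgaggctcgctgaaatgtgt
PTCH1 upstream, chr9:95509267-95509516, minus strand: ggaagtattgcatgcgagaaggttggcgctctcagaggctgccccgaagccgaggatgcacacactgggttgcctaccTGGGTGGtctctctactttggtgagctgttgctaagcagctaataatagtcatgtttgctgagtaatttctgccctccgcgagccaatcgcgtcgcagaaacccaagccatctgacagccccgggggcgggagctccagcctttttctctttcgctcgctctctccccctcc

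HHIP (ENSG00000164161), a membrane protein that binds Hedgehog ligands and dampens the pathway, fell with CHIR and with both plasmids to levels that overlapped. CHIR cells had 4.31, 3.48, 3.06, 2.53 and 4.29 CPM, and mock cells had 16.0, 14.1, 15.4, 13.9 and 15.3 CPM. The log2 fold change was -2.08 ± 0.11 (adjusted p = 1.86e-19). Dhelix cells had 2.80, 2.28, 1.94, 2.38 and 2.55 CPM and WT cells 2.40, 3.94, 2.81, 2.80 and 2.55 CPM. These groups overlapped each other but not mock cells, with log2 fold changes against mock cells of -2.65 ± 0.11 (adjusted p = 4.96e-23) for dhelix FOXP2 and -2.37 ± 0.11 (adjusted p = 2.64e-21) for WT FOXP2. With both, HHIP had 2.14 to 3.10 CPM in dhelix + CHIR cells and, in WT + CHIR cells, 2.23 to 2.88 CPM. Each of the 5 treated groups overlapped its neighbour in the order of means. HHIP-AS1, the antisense gene that overlaps HHIP exons, averaged 4.86 CPM in mock cells and also fell, with log2 fold changes against mock cells of -1.71 with CHIR, -1.91 with dhelix FOXP2 and -1.93 with WT FOXP2. The libraries were stranded, but the strand setting of the counting is not given in the sources used here, so reads of HHIP and HHIP-AS1 cannot be told apart.

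BOC (ENSG00000144857), an immunoglobulin-family coreceptor for Hedgehog ligands, fell more with CHIR than with either plasmid. CHIR cells had 1.39, 2.55, 2.59, 2.53 and 2.44 CPM, and mock cells had 20.2, 16.7, 19.7, 21.3 and 18.9 CPM. The CHIR mean was 11.9% of the mock mean (log2 fold change -3.08 ± 0.10, adjusted p = 2.02e-25), and CHIR replicate 1 was the lowest of all 30 libraries. Without that replicate the log2 fold change was -2.97. Dhelix cells had 6.07, 5.81, 6.60, 6.43 and 6.08 CPM and WT cells 6.45, 6.93, 6.32, 5.89 and 7.46 CPM. Both lay between CHIR and mock cells without overlap, with log2 fold changes against mock cells of -1.64 ± 0.08 (adjusted p = 2.8e-20) for dhelix FOXP2 and -1.54 ± 0.08 (adjusted p = 4.18e-19) for WT FOXP2. Dhelix + CHIR cells had 3.12, 2.70, 3.29, 2.59 and 3.60 CPM and WT + CHIR cells 3.65, 4.36, 3.95, 3.84 and 3.99 CPM. WDR52, whose exons overlap those of BOC on the opposite strand, averaged 15.0 CPM in dhelix + CHIR, 13.2 CPM in WT + CHIR, 17.4 CPM in CHIR, 16.6 CPM in dhelix, 16.4 CPM in WT and 27.6 CPM in mock cells, and the part of its reads in the BOC counts was not tested. One of the 2 BOC windows holds a forkhead core, marked in capitals in the 250 bases before its start, which is shown because BOC is the other of the 9 genes with such a match.
BOC upstream, chr3:113211866-113212115, plus strand: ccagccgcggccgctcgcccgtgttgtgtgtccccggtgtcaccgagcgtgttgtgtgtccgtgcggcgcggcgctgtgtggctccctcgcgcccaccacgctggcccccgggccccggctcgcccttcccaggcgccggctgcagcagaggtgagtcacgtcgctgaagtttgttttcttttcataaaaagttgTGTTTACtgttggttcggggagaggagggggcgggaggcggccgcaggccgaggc

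GAS1 (ENSG00000180447), a lipid-anchored coreceptor, was the gene of the 9 with the fewest counts, 11 to 48 in the libraries of the 5 treated groups and 64 to 137 in those of mock cells. CHIR cells had 1.37 to 2.26 CPM and mock cells 3.35 to 4.52 CPM, a log2 fold change of -1.23 ± 0.16 (adjusted p = 1.67e-08). Dhelix cells had 1.21 to 1.68 CPM and WT cells 0.817 to 1.35 CPM, and both lay below every mock library. Their log2 fold changes against mock cells were -1.43 ± 0.15 (adjusted p = 1.14e-10) and -1.89 ± 0.17 (adjusted p = 1.64e-12). Dhelix + CHIR cells had 1.66, 2.29, 1.30, 2.65 and 1.74 CPM and WT + CHIR cells 1.34, 1.33, 0.738, 1.23 and 0.627 CPM. The lowest dhelix + CHIR library, replicate 3, lay within the range of WT + CHIR cells.

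SMO (ENSG00000128602), the transmembrane protein that carries the signal inward, was lowest in WT + CHIR cells. CHIR cells had 22.2, 33.9, 37.2, 31.4 and 35.4 CPM, and mock cells 59.2, 59.0, 59.9, 58.7 and 58.3 CPM. The log2 fold change was -0.88 ± 0.07 (adjusted p = 9.08e-14), and CHIR replicate 1 lay below the other 4 CHIR libraries; without it the value was -0.81. Dhelix cells had 24.5 to 25.0 CPM and WT cells 24.2 to 27.0 CPM. The log2 fold changes against mock cells were -1.25 ± 0.07 (adjusted p = 2.16e-18) and -1.23 ± 0.07 (adjusted p = 5.72e-18). Dhelix + CHIR cells had 22.3, 20.9, 23.1, 20.2 and 20.2 CPM and WT + CHIR cells 15.7, 18.2, 18.2, 16.0 and 17.5 CPM. WT + CHIR cells lay wholly below every other group, and dhelix + CHIR cells wholly below dhelix and WT cells.

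SUFU (ENSG00000107882), the cytoplasmic inhibitor that binds GLI proteins, changed least with either plasmid. CHIR cells had 15.1, 20.4, 23.5, 20.2 and 18.9 CPM, and mock cells 29.3, 30.2, 28.6, 31.0 and 30.4 CPM. The log2 fold change was -0.60 ± 0.07 (adjusted p = 8.47e-10), and -0.55 without CHIR replicate 1. Dhelix cells had 22.5 to 25.0 CPM and WT cells 21.5 to 24.5 CPM, with log2 fold changes against mock cells of -0.31 ± 0.07 (adjusted p = 5.21e-05) and -0.39 ± 0.07 (adjusted p = 2.36e-06). SUFU levels were 22.3 to 26.3 CPM in dhelix + CHIR cells and, in WT + CHIR cells, 19.8 to 23.7 CPM. All 5 treated groups lay below mock cells, and each overlapped its neighbour in the order of means.

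GLI1 (ENSG00000111087), the transcriptional activator that GLI factors themselves induce, had the largest fall of the 9 genes with both plasmids. Dhelix cells had 5.17, 4.80, 5.52, 4.80 and 4.23 CPM, WT cells had 3.996, 4.14, 3.94, 3.87 and 3.41 CPM, and mock cells had 47.5, 46.2, 46.9, 47.2 and 46.8 CPM. The means were 10.5% and 8.25% of the mock mean, with log2 fold changes of -3.25 ± 0.10 (adjusted p = 2.26e-26) and -3.61 ± 0.11 (adjusted p = 9.9e-27). CHIR cells had 7.71, 15.1, 13.5, 13.9 and 16.2 CPM, a log2 fold change against mock cells of -1.83 ± 0.09 (adjusted p = 1.33e-19). CHIR replicate 1 was about as low as the libraries that also held a plasmid, and without it the log2 fold change was -1.72. Dhelix + CHIR cells had 7.85, 7.50, 8.19, 8.44 and 8.16 CPM and WT + CHIR cells 8.32, 6.97, 7.17, 6.80 and 7.76 CPM. These levels lay wholly above those with the same plasmid and no CHIR. ARHGAP9, which overlaps GLI1 exons on the opposite strand, averaged 0.263 CPM in mock and 0.235 CPM in CHIR cells. It averaged 0.943 CPM in WT, 1.17 CPM in dhelix, 1.33 CPM in WT + CHIR and 1.35 CPM in dhelix + CHIR cells. The part of ARHGAP9 reads in the GLI1 counts was not tested.

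GLI2 (ENSG00000074047), the main activator of the pathway, and GLI3 (ENSG00000106571), which acts mainly as a repressor once processed, fell less than GLI1. For GLI2, CHIR cells had 51.8, 74.1, 75.6, 65.1 and 65.8 CPM, and mock cells had 131, 126, 124, 131 and 129 CPM. The log2 fold change was -0.95 ± 0.06 (adjusted p = 5.17e-17), and again CHIR replicate 1 was the lowest CHIR library; without it the value was -0.90. GLI2 fell by 1.54 ± 0.06 on the log2 scale in dhelix cells (42.4 to 45.8 CPM; adjusted p = 1.39e-23) and by 1.58 ± 0.06 in WT cells (41.1 to 45.2 CPM; adjusted p = 1e-23), each against mock cells. For GLI3, CHIR cells had 109.6 to 123 CPM and mock cells 153 to 160.3 CPM, a log2 fold change of -0.41 ± 0.04 (adjusted p = 3.4e-12) and the smallest of the 9 genes. GLI3 fell by 1.42 ± 0.04 in dhelix cells (54.1 to 60.3 CPM; adjusted p = 2.19e-28) and by 1.31 ± 0.04 in WT cells (58.3 to 64.7 CPM; adjusted p = 3.27e-27), against mock cells. With CHIR present as well, GLI3 had 59.0 to 65.9 CPM in dhelix + CHIR and 58.2 to 63.1 CPM in WT + CHIR cells. The 250 bases before one of the GLI2 starts are shown because they hold the other GLI core among the 13 windows, in capitals (TGGGTGG, the reverse complement of CCACCCA).
GLI2 upstream, chr2:120735618-120735867, plus strand: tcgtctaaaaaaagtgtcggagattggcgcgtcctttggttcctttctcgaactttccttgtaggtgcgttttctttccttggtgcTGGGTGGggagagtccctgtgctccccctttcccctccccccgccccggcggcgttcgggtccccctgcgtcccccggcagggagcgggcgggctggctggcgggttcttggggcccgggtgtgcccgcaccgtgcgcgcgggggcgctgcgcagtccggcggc

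The effect of CHIR depended on whether the cells carried a FOXP2 plasmid. In WT + CHIR cells against WT cells, 5 of the 9 genes passed, 1 higher and 4 lower, where 64.9% of all tested genes passed, 34.8% higher and 30.2% lower. In dhelix + CHIR cells against dhelix cells, 6 passed, 3 higher and 3 lower, where 63.2% of all tested genes passed, 34.1% higher and 29.1% lower. GLI1 went the other way than in mock cells: it rose with CHIR by 0.95 ± 0.13 on the log2 scale in WT FOXP2 cells (adjusted p = 7.19e-08) and by 0.70 ± 0.12 in dhelix FOXP2 cells (adjusted p = 3.95e-06). PTCH1 fell by 0.25 ± 0.06 (adjusted p = 0.000285) with WT FOXP2 and by 0.20 ± 0.06 (adjusted p = 0.00243) with dhelix FOXP2. BOC fell by 0.75 ± 0.10 (adjusted p = 6.51e-08) and by 1.02 ± 0.11 (adjusted p = 2.15e-10), and SMO by 0.55 ± 0.08 (adjusted p = 1.71e-07) and by 0.22 ± 0.08 (adjusted p = 0.0126). GLI2 fell by 0.39 ± 0.06 (adjusted p = 2.3e-06) with WT FOXP2 and had a log2 fold change of -0.10 ± 0.06 (adjusted p = 0.181) with dhelix FOXP2. That GLI2 value passed without dhelix replicate 4 (-0.15), and also with no filter on low counts (-0.19), with only the compared groups fitted (-0.12) and without the 3 libraries CHIR replicate 1, dhelix replicate 5 and WT + CHIR replicate 4 (-0.14). HHIP and SUFU passed in neither, and their log2 fold changes lay between -0.22 and 0.09. In WT FOXP2 cells, GLI3 and GAS1 had log2 fold changes with CHIR of -0.05 ± 0.04 (adjusted p = 0.273) and 0.03 ± 0.22 (adjusted p = 0.916). GLI3 and GAS1 rose with CHIR in dhelix FOXP2 cells, by 0.11 ± 0.04 (adjusted p = 0.0203) and 0.41 ± 0.18 (adjusted p = 0.0447). Both calls were lost when any of 6 of the 10 libraries was left out: dhelix replicate 3, 4 or 5 or dhelix + CHIR replicate 2 for both genes, dhelix replicate 2 and dhelix + CHIR replicate 3 for GLI3, and dhelix replicate 1 and dhelix + CHIR replicate 4 for GAS1. The log2 fold change was then as low as 0.04 for GLI3, without dhelix replicate 2, and 0.27 for GAS1, without dhelix + CHIR replicate 4. Tested as an interaction of the deletion with CHIR, the difference between the plasmids passed for neither GLI3 (adjusted p = 0.0586) nor GAS1 (adjusted p = 0.419).

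**Figure D2:**
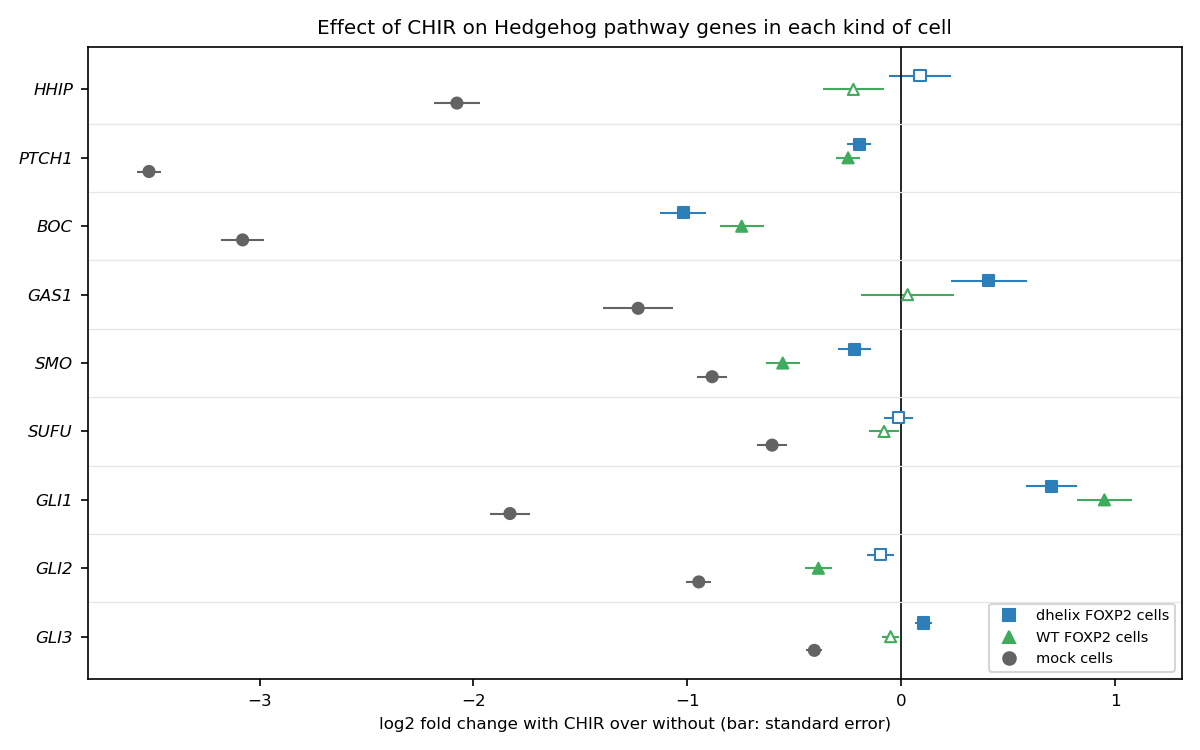
Log2 fold change with CHIR over without CHIR for each gene (horizontal axis). Bars are standard errors. Squares are dhelix FOXP2 cells, triangles are WT FOXP2 cells and circles are CHIR cells against mock cells. Filled symbols passed the adjusted threshold of 0.05. Every circle lies left of 0, whereas GLI1 lies right of 0 in both kinds of FOXP2 cells.

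The effect of the plasmids likewise differed between CHIR-treated and untreated cells. In WT + CHIR cells against CHIR cells, 2 of the 9 genes were higher and 6 lower, where 78.4% of all tested genes passed, 38.2% higher and 40.2% lower. In dhelix + CHIR cells against CHIR cells, 3 were higher and 5 lower, where 75.9% of all tested genes passed, 37% higher and 38.9% lower. PTCH1 was higher in both, by 0.46 ± 0.06 on the log2 scale with WT FOXP2 (adjusted p = 4.16e-08) and 0.59 ± 0.06 with dhelix FOXP2 (adjusted p = 1.99e-10). BOC was also higher, by 0.79 ± 0.13 with WT FOXP2 (adjusted p = 7.97e-07) and 0.42 ± 0.14 with dhelix FOXP2 (adjusted p = 0.0059). Without CHIR replicate 1, in which BOC was lowest, these BOC values were 0.67 and 0.29. SUFU was higher with dhelix FOXP2, by 0.28 ± 0.07 (adjusted p = 0.000804), and had a log2 fold change of 0.13 ± 0.07 (adjusted p = 0.0965) with WT FOXP2. That SUFU value passed without CHIR replicate 3 (0.24), CHIR replicate 4 (0.17) or WT + CHIR replicate 1 (0.19) or 2 (0.17), and with all libraries under DESeq2 (0.16, adjusted p = 0.038), DESeq2 size factors (0.16) and a filter at a mean of 1 CPM (0.17). GLI1, GLI2, GLI3, HHIP and SMO were lower in CHIR cells with either plasmid, with log2 fold changes of -1.02 to -0.48. The largest of these falls was that of GLI2 with WT FOXP2 (-1.02 ± 0.06, adjusted p = 4.29e-17). GLI1 fell by 0.83 ± 0.11 (adjusted p = 1.75e-08) with WT FOXP2 and by 0.72 ± 0.11 (adjusted p = 4.08e-07) with dhelix FOXP2, although CHIR replicate 1 lay within the range of both plasmid groups. GAS1 fell with WT FOXP2 (-0.63 ± 0.20, adjusted p = 0.0054) and had a log2 fold change of 0.21 ± 0.19 (adjusted p = 0.308) with dhelix FOXP2, which was 0.097 without dhelix + CHIR replicate 4 and 0.36 without CHIR replicate 5.

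**Figure D3:**
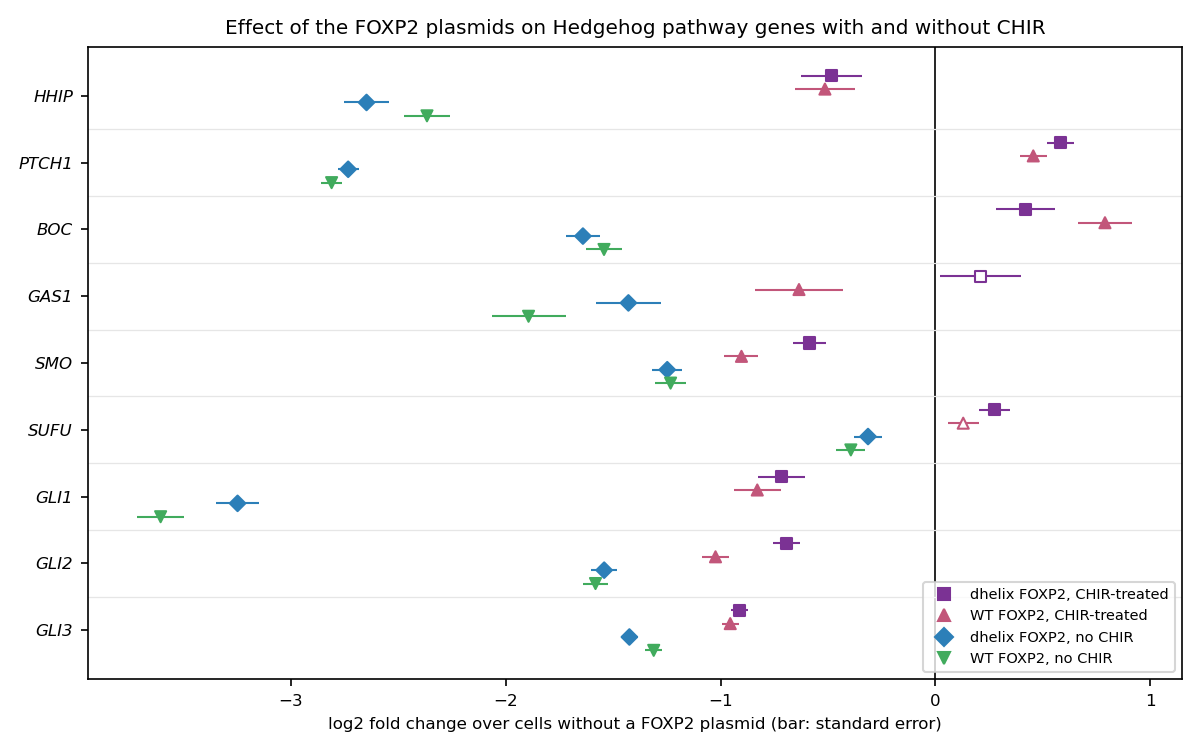
Log2 fold change with a FOXP2 plasmid over cells without one (horizontal axis; bars are standard errors), in CHIR-treated cells (dhelix squares, WT upward triangles) and in cells without CHIR (dhelix diamonds, WT downward triangles). Filled symbols passed the adjusted threshold of 0.05. PTCH1 and BOC lie right of 0 with CHIR and left of 0 without it.

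The difference between these effects was tested as an interaction, and all 9 genes were higher than the product of the separate effects for each plasmid. Over all tested genes, 65.6% passed for WT FOXP2, 30.7% higher and 34.9% lower, and 64.8% for dhelix FOXP2, 31.2% higher and 33.7% lower. The median interaction of the 9 genes was 1.26 on the log2 scale for WT FOXP2 and 1.64 for dhelix FOXP2, beside medians of all tested genes of -0.02 and -0.0048. Both interactions share the CHIR and mock libraries. The same mock libraries enter the comparisons in which all 9 genes fell, so the interactions are not independent of those falls. The shares are over all tested genes and not over genes that were lower with both treatments. PTCH1 had the largest interaction of the 9, at 3.27 ± 0.08 (adjusted p = 2.17e-28) for WT FOXP2 and 3.32 ± 0.08 (adjusted p = 9.79e-29) for dhelix FOXP2. With WT FOXP2 and CHIR together, PTCH1 averaged 12.7 CPM where the product of the separate effects was 1.31 CPM, and with dhelix FOXP2 and CHIR it averaged 13.8 CPM where the product was 1.39 CPM. GLI1 averaged 7.40 CPM in WT + CHIR cells, where the product was 1.10 CPM, and 8.03 CPM in dhelix + CHIR cells, where the product was 1.39 CPM. Its interactions were 2.78 ± 0.16 (adjusted p = 1.98e-17) and 2.53 ± 0.15 (adjusted p = 7.89e-17). Those of BOC were 2.33 ± 0.15 (adjusted p = 4.96e-16) and 2.06 ± 0.16 (adjusted p = 6e-14), and those of HHIP were 1.85 ± 0.18 (adjusted p = 2.9e-11) and 2.16 ± 0.18 (adjusted p = 7.68e-13). GAS1 had interactions of 1.26 ± 0.28 and 1.64 ± 0.24. The 4 genes GLI2, SUFU, GLI3 and SMO had the smaller ones, from 0.33 ± 0.11 for SMO with WT FOXP2 (adjusted p = 0.00723) to 0.85 ± 0.09 for GLI2 with dhelix FOXP2 (adjusted p = 6.48e-11). FOXP2 itself was higher with CHIR than without, by 1.11 ± 0.09 in WT FOXP2 cells (adjusted p = 3.62e-12) and 1.34 ± 0.09 in dhelix FOXP2 cells (adjusted p = 7.25e-14), and the part of this difference in plasmid expression was not tested. Without CHIR replicate 1 the interactions of GLI1 were 2.65 and 2.38 and those of PTCH1 3.31 and 3.34.

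The helix deletion was compared with wild-type FOXP2 first without CHIR. In dhelix cells against WT cells, 2 of the 9 genes passed, 1 higher and 1 lower, where 35.6% of all tested genes passed, 16.9% higher and 18.7% lower. GLI1 was higher, by 0.36 ± 0.13 (adjusted p = 0.0336), with no overlap between the groups, and GLI3 was lower, with a log2 fold change of -0.11 ± 0.04 (adjusted p = 0.0227). The GLI1 call was lost without WT replicate 4 or 5 or dhelix replicate 1 or 3, where its log2 fold change was 0.32 to 0.36. The GLI3 call was lost without WT replicate 1, 2, 3 or 5 or dhelix replicate 2, 4 or 5, where its log2 fold change was -0.10 to -0.08. GAS1 had a log2 fold change of 0.47 ± 0.20 (adjusted p = 0.0624), and it passed without WT replicate 2 (0.58), WT replicate 3 (0.53) or dhelix replicate 5 (0.53), and also with a filter at a mean of 1 CPM (0.48), with only the compared groups fitted (0.48) and without the 3 libraries named above (0.53). The other 6 genes had log2 fold changes between -0.28 and 0.08.

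In CHIR-treated cells, GLI2, SMO and GAS1 were higher and BOC was lower with the deletion than with wild-type FOXP2. In dhelix + CHIR cells against WT + CHIR cells, 4 of the 9 genes passed, 3 higher and 1 lower, where 30.6% of all tested genes passed, 16.6% higher and 13.9% lower. GLI2 was higher by 0.33 ± 0.07 (adjusted p = 0.000132), with 38.3 to 44.0 CPM in dhelix + CHIR cells and 29.6 to 34.8 CPM in WT + CHIR cells. SMO was higher by 0.32 ± 0.08 (adjusted p = 0.00282), again with no overlap, and GAS1 by 0.84 ± 0.20 (adjusted p = 0.00113). BOC was lower, with a log2 fold change of -0.37 ± 0.12 (adjusted p = 0.0164), which was -0.32 (adjusted p = 0.0571) without dhelix + CHIR replicate 4. FOXP2 had a log2 fold change of -0.18 ± 0.08 (adjusted p = 0.106) in the same comparison and -0.41 ± 0.08 (adjusted p = 0.000337) in dhelix cells against WT cells. Tested as an interaction of the deletion with CHIR, 2 of the 9 genes passed, both higher, where 14.2% of all tested genes passed, 8.93% higher and 5.29% lower. They were GLI2 (0.29 ± 0.09, adjusted p = 0.0242) and SMO (0.33 ± 0.11, adjusted p = 0.0386). These interactions were close to the threshold: leaving out 1 of the 20 libraries ended the GLI2 call in 8 cases and the SMO call in 16. For GLI2 these libraries were WT replicates 3 and 5, WT + CHIR replicate 4, dhelix replicates 2, 4 and 5 and dhelix + CHIR replicates 1 and 2, with interactions of 0.25 to 0.27. For SMO, the call remained only without WT + CHIR replicate 2 or 3 or dhelix + CHIR replicate 4 or 5, and its interaction was 0.28 to 0.35 over all 20. GLI3 had an interaction of 0.16 ± 0.06 (adjusted p = 0.0586), which passed without WT replicate 4 (0.18), dhelix replicate 1 (0.17) or dhelix + CHIR replicate 5 (0.17).

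Other genes of the pathway were described from lists by role. The counts of each list below, against mock cells, stand beside the shares of all tested genes. These were 38.8% higher and 35.3% lower with CHIR, 39.9% and 41.6% with WT FOXP2, and 39.6% and 40.9% with dhelix FOXP2. Of the ligands, SHH reached at most 6 counts, IHH at most 6 and DHH at most 13 in any library, and none of the 3 had enough counts to test. Of 6 tested genes for ligand acylation and release, 0 were higher and 4 lower with CHIR, 1 higher and 5 lower with WT FOXP2, and 1 higher and 4 lower with dhelix FOXP2, each against mock cells. SCUBE3, a secreted protein of the family that helps to release lipid-bearing ligand, fell by 2.90 ± 0.11 with CHIR (adjusted p = 2.7e-23), 2.05 ± 0.10 with WT FOXP2 (adjusted p = 9.53e-21) and 1.66 ± 0.09 with dhelix FOXP2 (adjusted p = 4.57e-19). The acyltransferase HHAT rose slightly with the plasmids, by 0.15 ± 0.04 with WT FOXP2 (adjusted p = 0.000454) and 0.10 ± 0.04 with dhelix FOXP2 (adjusted p = 0.0129).

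Most other genes of ligand reception fell as well. Of 9 tested, 1 was higher and 8 lower with CHIR, 0 were higher and 8 lower with WT FOXP2, and all 9 were lower with dhelix FOXP2, against mock cells. Their median log2 fold changes were -1.10, -1.77 and -1.60. GPC4, a glypican, averaged 10.96 CPM in CHIR, 9.93 CPM in dhelix and 9.22 CPM in WT cells and 82.2 CPM in mock cells. It fell by 2.90 ± 0.07 (adjusted p = 1.44e-30), 3.05 ± 0.06 (adjusted p = 7.43e-32) and 3.15 ± 0.07 (adjusted p = 7.67e-32) in these groups. CDON, the coreceptor related to BOC and named here after its values were seen, fell by 1.27 ± 0.07 with CHIR (adjusted p = 1.15e-18), 1.73 ± 0.07 with dhelix FOXP2 (adjusted p = 3.66e-23) and 1.77 ± 0.07 with WT FOXP2 (adjusted p = 5.27e-23). For the interaction of CHIR with WT FOXP2, and likewise with dhelix FOXP2, 8 of the 9 reception genes were higher and 1 lower. Over all tested genes, 30.7% were higher and 34.9% lower for WT FOXP2, and 31.2% and 33.7% for dhelix FOXP2.

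Genes further down the pathway moved in both directions, as did the tested genes as a whole. Of 17 tested genes of the cilium and of the step from SMO to GLI, 7 were higher and 5 lower with CHIR, 3 higher and 10 lower with WT FOXP2, and 4 higher and 9 lower with dhelix FOXP2, against mock cells. GPR161, a ciliary receptor that promotes GLI repressor formation, fell by 1.48 ± 0.09 with dhelix FOXP2 (adjusted p = 2.51e-17) and 1.51 ± 0.09 with WT FOXP2 (adjusted p = 3.85e-17). KIF7, a ciliary kinesin that regulates GLI proteins, rose by 0.46 ± 0.06 with CHIR (adjusted p = 2.04e-09), 0.78 ± 0.05 with dhelix FOXP2 (adjusted p = 5.81e-16) and 0.79 ± 0.05 with WT FOXP2 (adjusted p = 6.06e-16). Of 15 genes for GLI kinases and for proteolysis and their regulators, 7 were higher and 6 lower with CHIR, 10 higher and 2 lower with WT FOXP2, and 9 higher and 4 lower with dhelix FOXP2. Among them PRKACA, a catalytic subunit of protein kinase A, which phosphorylates GLI proteins, had log2 fold changes of -0.77, -0.84 and -0.78 with CHIR, WT FOXP2 and dhelix FOXP2. The medians of the 15 genes were -0.06, 0.17 and 0.14 in the same order, so PRKACA was not typical of the list.

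Of 15 tested genes described as GLI targets, other than the 9, 6 were higher and 8 lower with CHIR, and 5 were higher and 10 lower with each plasmid, against mock cells. MYCN, a transcription factor of the MYC family, averaged 0.156 CPM in CHIR cells, 0.396 CPM in dhelix cells and 0.155 CPM in WT cells, against 3.57 CPM in mock cells, with log2 fold changes of -4.47 ± 0.27 (adjusted p = 1.87e-17), -3.16 ± 0.20 (adjusted p = 5.91e-17) and -4.47 ± 0.26 (adjusted p = 3.44e-18). BCL2, an inhibitor of apoptosis, moved the other way and was higher by 1.69 ± 0.06 with CHIR (adjusted p = 7.74e-25). BMP4, a bone morphogenetic protein, rose by 1.51 ± 0.06 with CHIR (adjusted p = 3.57e-23) and fell by 1.19 ± 0.06 with dhelix FOXP2 (adjusted p = 2e-19). Its mean was also low with WT FOXP2, at 25.9 CPM in WT cells beside 29.4 CPM in dhelix and 67.2 CPM in mock cells. PTHLH, the parathyroid hormone-like hormone of the growth plate, rose by 2.64 ± 0.08 with dhelix FOXP2 (adjusted p = 4.3e-26) and 2.73 ± 0.09 with WT FOXP2 (adjusted p = 1.61e-26). The median log2 fold changes of the 15 targets were -0.67 with CHIR, -0.50 with WT FOXP2 and -0.42 with dhelix FOXP2. Over all tested genes the medians were 0.02, -0.02 and -0.02. GLI1, PTCH1 and HHIP fell in all 3 of these comparisons, whereas these targets moved in both directions, with more lower than higher in each.

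**Figure D4:**
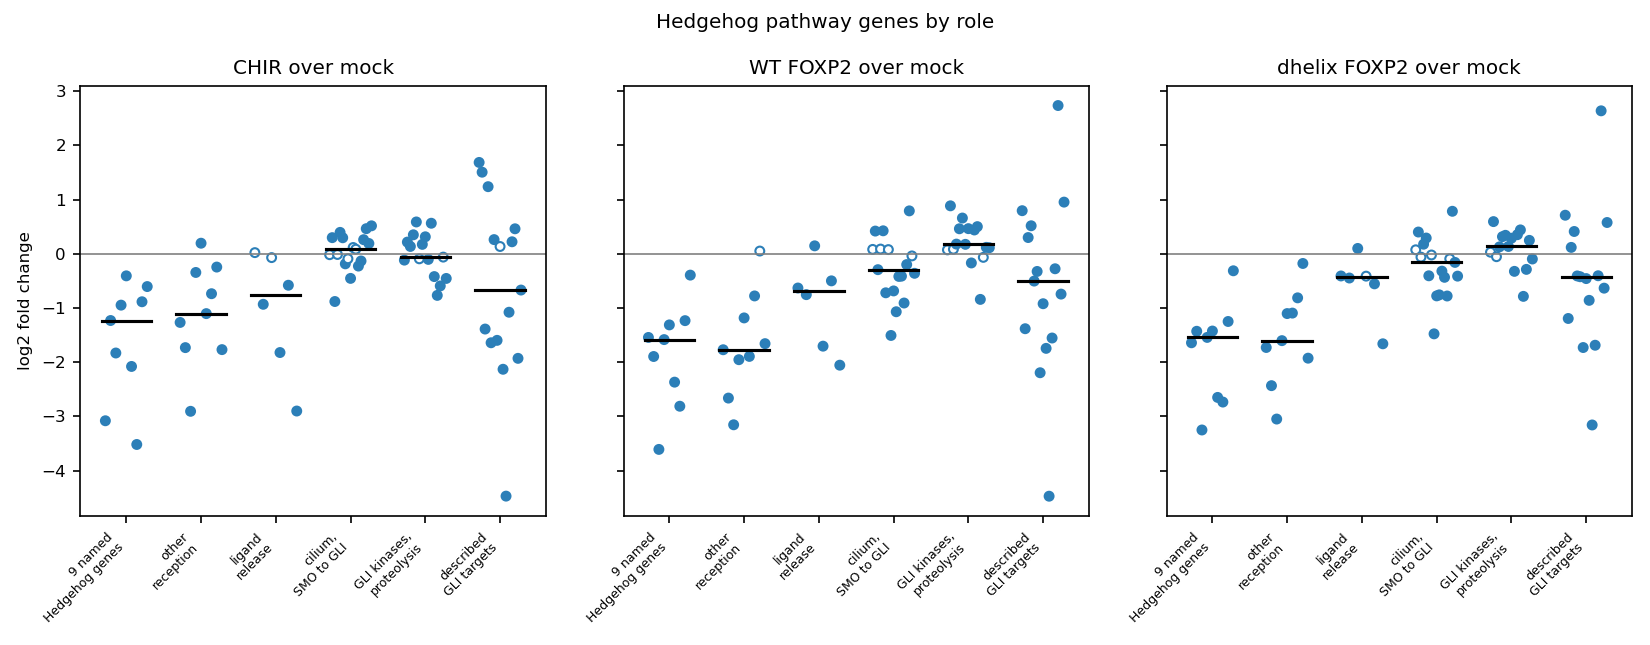
Log2 fold change against mock cells (vertical axis) for the 9 Hedgehog pathway genes and for tested genes of 5 other roles, in CHIR, WT and dhelix cells. Points are genes, filled where they passed the adjusted threshold of 0.05, and lines are medians. The 9 genes lie below 0, and the other reception genes and the ligand release genes lie mostly below 0. Genes of the remaining lists lie on both sides. With either plasmid, more of the cilium genes and of the GLI targets were lower than higher.

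Across the 30 libraries, log2 CPM of GLI2 and SMO were the most alike pair of the 9 genes (Pearson r = 0.981), and GLI3 and SUFU the least alike (r = 0.333). Among 15143 genes with a mean of at least 1 CPM, the gene most like each was NFIA for PTCH1 (r = 0.986), UNC5B for GLI1 (r = 0.991), FAM168A for GLI2 (r = 0.989), CLTCL1 for GLI3 (r = 0.992), KIAA0922 for HHIP (r = 0.976), EPHB4 for SMO (r = 0.985), CACNA1H for SUFU (r = 0.929), LPAR5 for GAS1 (r = 0.918) and SREBF1 for BOC (r = 0.979). These correlations only describe the libraries, which share 6 groups.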

How the data were processed

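Gene expression was measured by stranded mRNA sequencing in 30 libraries of U2OS cells, 5 in each of 6 groups named by the sample titles. The authors deposited whole-number read counts per gene; per the submitters' processing notes, STAR 2.6.1a, featureCounts (Subread) and DESeq2 were used with build hg19. The strand setting of the counting is not given in the sources used here. Counts were filtered with filterByExpr, scaled by trimmed means of M values and fitted with edgeR 4.0.16 (R 4.3.3, limma 3.58.1) as 1 mean per group over all 30 libraries. The fit gave 9 comparisons of groups and 3 interactions by a robust quasi-likelihood test, with Benjamini-Hochberg adjustment over all 18485 genes tested, which held 99.9% of the counts. The standard error is the log2 fold change divided by the root of F. The procedure was tested on simulated counts for CHIR and mock cells, in which few genes changed, as many up as down. In the data 74.1% of tested genes passed in that comparison, so the simulation did not test the scaling under such wide change. P-values and standard errors rest on the spread between libraries labelled as biological replicates, with 1 estimate per gene shared by all 6 groups. The groups differed in spread: for GLI1 the SD was 24.8% of the mean in CHIR cells and 1.05% in mock cells. Standard errors of comparisons with CHIR cells can therefore be too small. Promoter letters were searched in RefSeq windows of GRCh38.p14, and gene overlaps came from the GENCODE annotation of GRCh38, not the build of the counts.

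The genes and the lists of other pathway genes and cell markers were chosen with earlier results of these data known. Of each wider list, up to 3 genes per direction with the largest significant change and a mean of at least 1 CPM were eligible to be named, and CDON was added; some eligible items are not reported here. No column of the table was left unused. Alternatives were DESeq2 1.42.0, its size factors in edgeR, other filters, the compared groups only, FOXP2 left out, a replicate block, and leaving out libraries.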

Additional observations from a re-analysis of the deposited data

Results flagged for a closer look

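A library stood apart from the other 4 of its group in 4 of 54 groups of values, where chance flags about 1 in 20. GLI3 was low in WT replicate 4, at 58.3 CPM where the other WT libraries had 63.0 to 64.7 CPM. HHIP was high in WT replicate 2, at 3.94 CPM beside 2.40 to 2.81 CPM. SMO was low in dhelix replicate 3, at 24.5 CPM beside 24.9 to 25.0 CPM, a small gap within a narrow group. BOC was low in CHIR replicate 1, at 1.39 CPM beside 2.44 to 2.59 CPM.

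The effect of CHIR differed between cells with a FOXP2 plasmid and mock cells for all 9 genes, by the test of the interaction in edgeR, which 65.6% of all tested genes passed for WT FOXP2 and 64.8% for dhelix FOXP2. On the log2 scale the difference with WT FOXP2 was 3.27 for PTCH1, 2.78 for GLI1, 2.33 for BOC, 1.85 for HHIP, 1.26 for GAS1, 0.56 for GLI2, 0.52 for SUFU, 0.36 for GLI3 and 0.33 for SMO. With dhelix FOXP2 it was 3.32 for PTCH1, 2.53 for GLI1, 2.16 for HHIP, 2.06 for BOC, 1.64 for GAS1, 0.85 for GLI2, 0.66 for SMO, 0.59 for SUFU and 0.51 for GLI3. Between dhelix and WT FOXP2 cells, the effect of CHIR differed by 0.29 for GLI2 and 0.33 for SMO.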

How the results depend on the processing

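Of 108 values (9 genes in 12 comparisons), all 108 kept their direction and their side of the threshold with a replicate block and with FOXP2 left out of library sizes, 107 with DESeq2 and with its size factors, 106 with a mean of at least 1 CPM, 105 with the compared groups only, 100 without 3 libraries that stand apart (CHIR replicate 1, dhelix replicate 5 and WT + CHIR replicate 4) and 99 with no filter on low counts. The replicate block, in which 2 of the 9 genes again passed for dhelix against WT cells, changed no call; same-numbered libraries correlated by -0.077 to 0.145, so the numbers were not taken as pairs.

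With no filter on low counts, 1 of the 9 genes passed in edgeR for dhelix against WT cells. For the interaction of the deletion with CHIR, 0 passed in that setting, where 4 had an unadjusted p under 0.05. DESeq2 was run only on the filtered genes, where it called 2 for this interaction, as edgeR did. Values near 0 that changed sign with no filter were HHIP in dhelix + CHIR against dhelix cells (-0.0025), PTCH1 in the interaction of the deletion (-0.0096) and SMO in dhelix against WT cells (0.029). Without the 3 libraries, GAS1 in WT + CHIR against WT cells (-0.025) and HHIP in dhelix + CHIR against WT + CHIR cells (-0.015) changed sign, and BOC in dhelix + CHIR against CHIR cells no longer passed (0.29, adjusted p = 0.0507), nor did GAS1 (0.32) and GLI3 (0.065) in dhelix + CHIR against dhelix cells, while GLI1 passed for the interaction of the deletion (-0.34, adjusted p = 0.0309). Over all genes, 2627 passed for the interaction of the deletion, and 4291 with only the compared groups. The cause of these changes was not tested.

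Leaving out 1 library at a time gave 0 to 2 of the 9 genes for dhelix against WT cells and 0 to 3 for the interaction of the deletion. Ranges that crossed 0 were -0.082 to 0.16 for GAS1 in WT + CHIR against WT cells, -0.046 to 0.10 for HHIP in dhelix + CHIR against WT + CHIR cells, -0.022 to 0.15 for HHIP in dhelix + CHIR against dhelix cells and -0.020 to 0.021 for SMO in dhelix against WT cells. GAS1 had the fewest counts of the 9 genes, 11 to 48 in treated libraries.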
